A study of Mus musculus with 2 samples.

Results

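Kupffer cells, the resident macrophages of the liver, were recovered as a by-product of hepatic stellate cell (HSC) preparations from mice with fibrosis induced by carbon tetrachloride (CCl4). They were selected by marker counts. A barcode was taken as a Kupffer cell when Clec4f, Cd5l, Vsig4 and Csf1r together gave at least 8 of every 10000 of its UMIs (molecule counts), and when the stellate markers Lrat, Ecm1, Hgf and Reln together gave fewer than 15. This rule chose 471 of 16420 kept barcodes. There were 288 in the p16-LRTD library, 3.199% of its kept barcodes (95% interval 2.84 to 3.58), and 183 in the p16-Alb-LRTD library, 2.47% (2.13 to 2.85). Because these cells are what the stellate preparation left in, the shares describe 2 preparations and not the liver.

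The study asked what hepatocytes with high p16 expression (p16h) do in the fibrotic liver, and eliminated them with diphtheria toxin. Both genotypes were male mice that carried p16-CreERT2 and the R26-CAG-LSL-RSR-tdTomato-2A-DTR allele, and both received CCl4, tamoxifen and diphtheria toxin. The paper does not state how long this treatment lasted for the stellate cell libraries. The p16-Alb-LRTD mice also carried Alb-DreERT2, a recombinase driven by the albumin promoter and therefore active in hepatocytes, so that their p16h hepatocytes bore the toxin receptor. The p16-LRTD mice lacked it and were the controls. Age and the number of mice in each library are not given in the sources used here. With 1 library per genotype there is no replicate check and no test, and the barcodes of a library are not replicates of a genotype. Each interval below is a 95% interval that covers counting error only.

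Kupffer cells line the liver sinusoids, where they bind blood-borne particles, dying cells and lipoproteins through scavenger receptors, take up old red cells and recycle their iron. They are seeded before birth and renew themselves in the healthy liver. After injury the niche can be refilled from blood monocytes, which acquire Clec4f and Cd5l before they acquire Timd4. In fatty or scarred liver a lipid-associated macrophage state has been described, marked by Gpnmb, Trem2, Spp1, Cd9 and Fabp5, and rich in lysosomal and lipid-handling genes.

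The 4 genes of the rule are given first, as a description only, since they chose the members. Clec4f, a galactose-binding lectin of Kupffer cells, was at 2462 CPM in p16-LRTD against 3253 CPM in p16-Alb-LRTD (CPM being a gene's UMIs summed over the Kupffer barcodes of a library and scaled to a common total), and a UMI of it was seen in 261 (90.6%) and 171 (93.4%) of the members. Cd5l, a secreted scavenger protein, was at 4796 and 5471 CPM. Vsig4, a complement receptor, was at 2563 and 2507 CPM, and Csf1r, the receptor for the macrophage growth factor, at 1016 and 1138 CPM. The summed marker share had a median of 119 per 10000 UMIs (range 8.40 to 267) in p16-LRTD and 130 (10.5 to 226) in p16-Alb-LRTD. The barcodes just outside the limit were at 7.90 and 7.75, and 261 and 167 members were above 40, far from it. The stellate sum had medians of 1.97 and 1.76 per 10000, and the members nearest its limit were at 13.8 and 8.90, with the nearest barcodes outside at 15.3 and 23.9. A further 60 and 19 barcodes carried both Kupffer and stellate markers past the limits and were left out.

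Genes that the rule did not use follow, ranked by their level relative to all other kept barcodes. High values were built into this ranking, so it is a description and not a check of the label. Kcnj16, an inward-rectifier potassium channel, had the highest level relative to all other kept barcodes (458-fold), followed by Cd163, the haptoglobin-haemoglobin receptor (311-fold), the immunoglobulin-like receptor Lilra5 (292-fold), Ksr2 (292-fold) and Adgb (291-fold). Next were Il1b, the cytokine interleukin-1 beta (271-fold), the calcium channel Trpm2 (264-fold), Bank1, a scaffold protein known from B cells (240.2-fold), Treml4 (240.1-fold), Fpr1, a receptor for bacterial peptides (239-fold), Epb41l3 (238-fold) and Timd4, a phosphatidylserine receptor for dying cells (236-fold). Several of these, such as Cd163, Fpr1 and Timd4, are known macrophage or myeloid genes, whereas Ksr2, Adgb and Bank1 are not markers of macrophages. Kcna2, C6 and Clec1b, which are enriched in mouse Kupffer cells, were present at 112 to 421 CPM in p16-LRTD and 79.3 to 566 CPM in p16-Alb-LRTD.

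**Figure D1:**
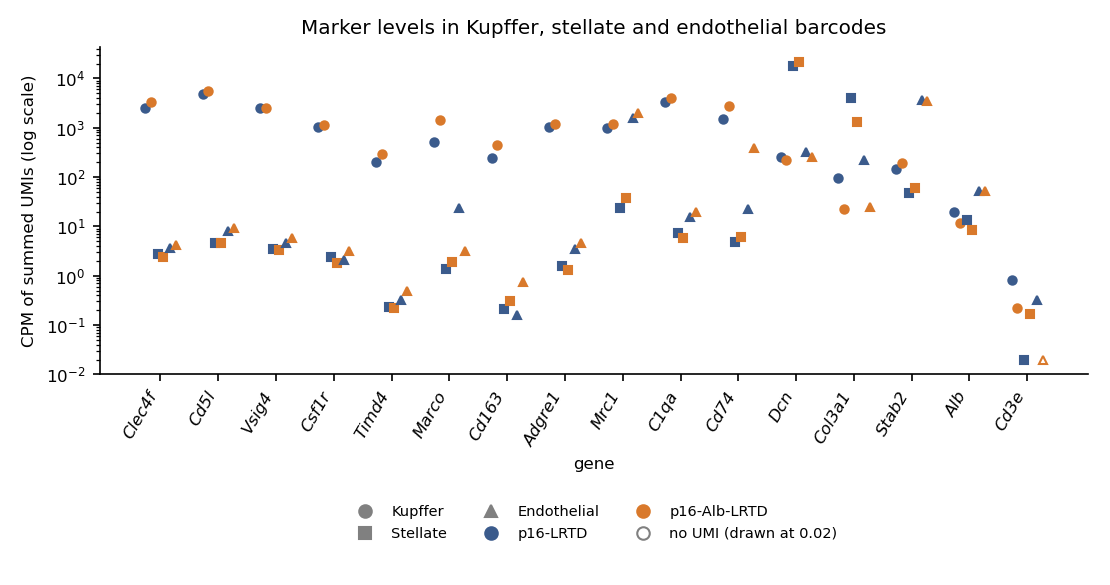
Levels of 16 marker genes in CPM on a log axis, in barcodes chosen as Kupffer cells (circles), stellate cells (squares) and endothelial cells (triangles) of both libraries (colours). Open symbols near the bottom mark genes without a UMI. Clec4f was at 2462 and 3253 CPM in the Kupffer barcodes of the libraries, while Col3a1, a stellate collagen, was at 95.5 and 22.96 CPM there.

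Markers of other liver cells were present at low levels. The 17 stellate markers summed to 814 CPM in the Kupffer barcodes of p16-LRTD and 596 CPM in those of p16-Alb-LRTD, and Dcn, the small proteoglycan decorin, made up 256 and 222 of these. Col3a1 was at 95.5 and 22.96 CPM, a log2 ratio of p16-Alb-LRTD over p16-LRTD of -2.06. The 12 endothelial markers summed to 749 and 1068 CPM. Of this, 370 and 529 CPM were Cdh5, a cadherin known from endothelium, which had a UMI in 68.6% and 83.0% of thinned Kupffer barcodes (83.3% and 94.5% without thinning), against 2.9% and 3.0% of stellate barcodes. It was lower in the Gpnmb-rich barcodes described below (log2 ratio -3.41 and -3.04 against those without Gpnmb). Clec4f and Timd4 were lower there as well, and so was the endothelial gene Stab2 (-2.10 and -2.22). The source of the Cdh5 counts was not tested. Stab2 had a UMI in 208 and 154 members and Pecam1 in 156 and 132. Under the same per-10000 measure, 7 members of each library (2.43%, 0.983 to 4.94, and 3.83%, 1.55 to 7.72) were rich in the endothelial genes Stab2, Clec4g, Kdr and Dnase1l3. Hepatocyte markers summed to 49.1 and 37.9 CPM, neutrophil markers to 73.7 and 71.7, dendritic cell markers to 77.8 and 74.95, and lymphocyte markers to 17.7 and 35.5. No UMI was seen in either library for 2 of 7 neutrophil, 3 of 11 lymphocyte and 3 of 9 dendritic cell markers. These were Ly6g and Retnlg of neutrophils, Ms4a1 and Ighm of B cells, Gzma of cytotoxic lymphocytes, and Flt3, Siglech and Ccr7 of dendritic cells. The same held for 3 of 5 cholangiocyte markers, Epcam, Krt19 and Sox9. The other markers of these lists were detected. Clec9a, known from dendritic cells, had a UMI in 31.4% and 19.2% of thinned Kupffer barcodes (60.8% and 61.7% without thinning). Without the endothelial-rich barcodes the list medians given below were 0.72 in place of 0.82 for MHC class II genes, 1.46 in place of 1.28 for interferon-stimulated genes, 1.20 in place of 1.24 for inflammatory genes, 0.90 in place of 0.89 for glucocorticoid targets and -0.84 in place of -0.88 for lipid-associated genes. The part of the other markers in the differences below was not tested.

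The Kupffer barcodes held 6094536 UMIs in p16-LRTD and 4616342 in p16-Alb-LRTD, with a median per barcode of 19747.5 and 25244 UMIs, 4745 and 5188 genes, and a mitochondrial share of 2.88% and 2.79%. The files held 11149 and 8806 barcodes with 193746596 and 162219167 UMIs, and the stellate barcodes, the bulk of each library, had medians of 17179 and 18318 UMIs. The libraries had 95 barcodes in common, none of them among the Kupffer cells. The deeper p16-Alb-LRTD barcodes would show a UMI of a given gene more often, so shares of barcodes with a UMI are given after each barcode was thinned to 5000 UMIs, which left out 5 members of the control library and 1 of the other. Thinned shares are followed by the share without thinning where a result rests on them.

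The comparison of the genotypes sets Kupffer cells of mice whose p16h hepatocytes had been eliminated beside those of controls. The paper also saw very mild fibrosis away from the central veins, only in mice with both Alb-DreERT2 and the receptor allele. It speculates that leaky expression of the toxin receptor was the reason. Both libraries here came from mice with p16-CreERT2, and the part of such leakage in the differences below was not tested. In p16-Alb-LRTD, genes of the interferon response, inflammatory cytokines and chemokines, glucocorticoid targets and MHC class II genes were higher, and genes of the lipid-associated macrophage state were lower. The transcription factors of these cells differed little. Over 6268 genes with a mean level of at least 20 CPM, the median log2 ratio was -0.03, with 98 genes (1.56%) at least 2-fold higher and 40 (0.638%) at least 2-fold lower. These 2-fold calls are a rule of size and not a test.

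**Figure D2:**
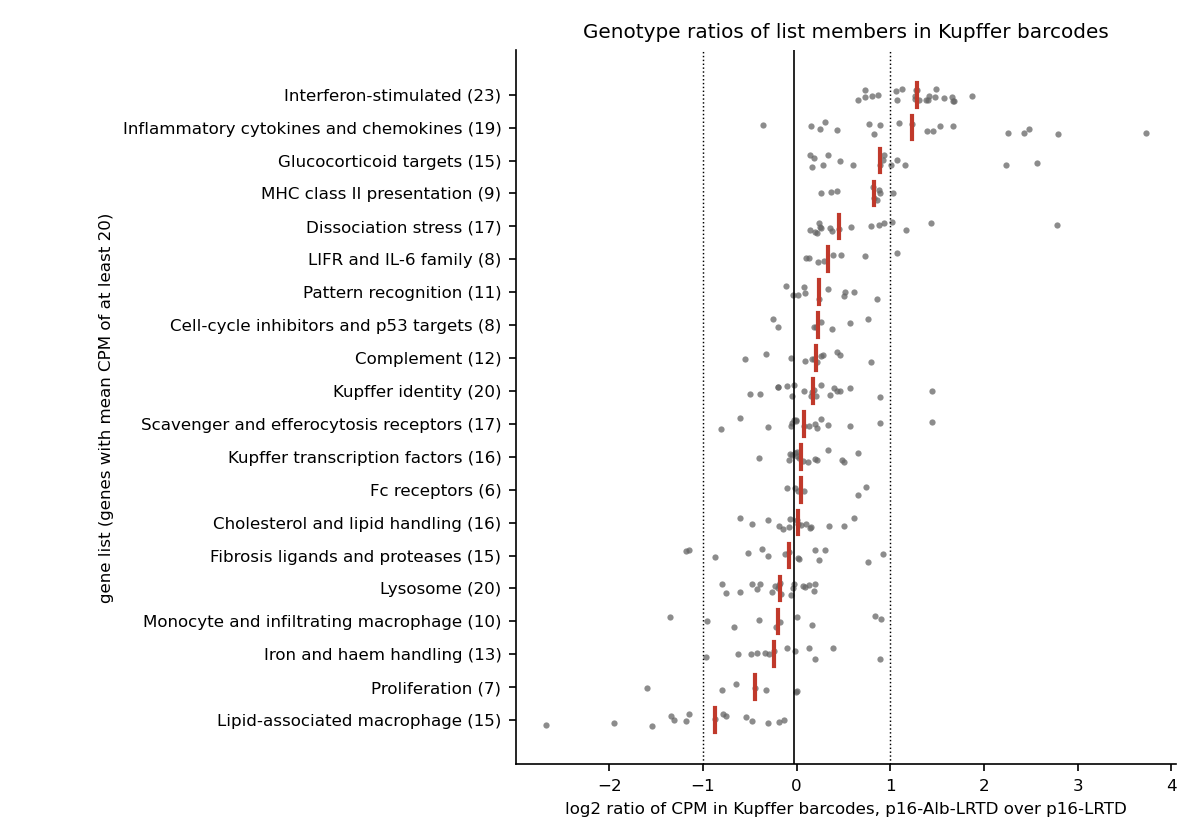
Log2 ratios of CPM (p16-Alb-LRTD over p16-LRTD) in Kupffer barcodes for the members of 20 gene lists (grey points, 1 per gene with a mean of at least 20 CPM, number in brackets) with the list median (red bar). The solid line is the median of all genes at that level (-0.03) and the dotted lines mark 2-fold. Interferon-stimulated genes (median 1.28) lie at the top and lipid-associated macrophage genes (median -0.88) at the bottom.

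Genes were ranked by ratio where they reached 50 CPM in 1 library and had a mean level in Kupffer barcodes no lower than in the other kept barcodes. Genes outside this ranking can have larger ratios. The 50 CPM limit was met in p16-Alb-LRTD alone by 9 of the 12 with the largest ratios, and in p16-LRTD alone by 7 of the 12 with the smallest. Among the 12 largest, Tnf, the cytokine tumour necrosis factor (chr17:35199381-35202007, GRCm38), came first, from 9.02 CPM in p16-LRTD to 120 CPM in p16-Alb-LRTD (log2 ratio 3.73, 3.33 to 4.16). It was followed by Lepr, the leptin receptor (12.6 and 90.3 CPM, 2.84), and Ccl7, a monocyte-attracting chemokine (23.3 and 162 CPM, 2.79). Ddit4, a stress-induced inhibitor of mTOR (2.56), the neutrophil chemokine Cxcl2 (2.25), Fkbp5, a co-chaperone of the glucocorticoid receptor (2.23), and Acod1, which makes the metabolite itaconate (11.8 and 50.3 CPM, 2.09), came next. The rest were Slpi (1.89), the interferon-induced genes Gbp5 (18.2 and 61.7 CPM, 1.76) and Ifi206 (22.8 and 75.6 CPM, 1.73), the stress gene Gadd45b (1.73) and the chemokine Ccl4 (1.67). At the other end stood Gpnmb, a glycoprotein of lipid-laden and lysosome-rich macrophages (chr6:49036546-49070929), from 699 to 109 CPM (-2.68, -2.81 to -2.54). Below it in size came Atp6v0d2, a subunit of the proton pump that acidifies lysosomes (-2.26), Fabp5, a fatty acid carrier (-1.95), and Cd207, the lectin langerin (-1.72). The other 8 were Adam8, a membrane protease (61.2 and 19.7 CPM, -1.63, but 0.54 without the barcodes rich in Gpnmb defined below), Ccr3 (-1.55), Itgax (-1.54), the fatty acid carrier Fabp4 (-1.48), Mgst1 (-1.44), the motor protein Myo5a (-1.32), Trem2 (-1.31) and Lgals3 (-1.18).

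Some of these ratios rest on a few barcodes. Of the Tnf UMIs in p16-Alb-LRTD, 37% came from 1 barcode, and leaving out the top barcode of each library gave a log2 ratio of 3.16. For Cxcl2 the top barcode held 33%, and the ratio without it was 1.77. Slpi, an inhibitor of neutrophil elastase, was at 32.0 and 119 CPM, but 59% and 80% of its UMIs came from 1 barcode, and its ratio went from 1.89 to 0.85 without them and to -3.62 in barcodes with 10000 to 30000 UMIs. For Fkbp5, in contrast, the top barcode held 2% of the UMIs.

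The list of Kupffer identity genes holds the 4 genes that chose the members, so its summary is a description. Of the 20 genes, 13 were higher and 7 lower in p16-Alb-LRTD, with a median of 0.18, and the median was also 0.18 over the 16 genes that the rule did not use. At least 2-fold higher was 1 of 20, beside 1.56% of all genes. This was Marco (chr1:120474538-120505024), a scavenger receptor for bacteria and particles, at 522 CPM in the control and 1423 CPM after elimination (1.45, 1.39 to 1.51). Cd163 was at 246 and 455 CPM (0.89), Timd4 at 197 and 292 CPM (0.57, 0.46 to 0.68), and Folr2, a folate receptor, at 534 and 686 CPM (0.36). Clec4f was 0.40 higher (0.37 to 0.43) and Vsig4 level (-0.03), while Cd68, a lysosomal membrane protein of macrophages, was lower (582 and 445 CPM, -0.39).

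Marco differed more in its amount per barcode than in the share of barcodes that showed it. After thinning, 40.6% of the p16-LRTD and 50.5% of the p16-Alb-LRTD Kupffer barcodes had a Marco UMI, against 0.7% and 0.8% of stellate barcodes (46.5% and 58.5% of Kupffer barcodes without thinning). The median Marco level per barcode was 0 and 0.999 per 10000 UMIs, the upper quartile 5.56 and 21.2, and the 90th percentile 14.1 and 49.0. For Clec4f, a gene of the rule, the medians were 27.4 and 33.0 per 10000. Timd4 was seen in 39.6% and 46.7% of thinned Kupffer barcodes and Cd163 in 39.6% and 47.3% (49.3% and 55.7%, and 53.8% and 57.4%, without thinning).

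**Figure D3:**
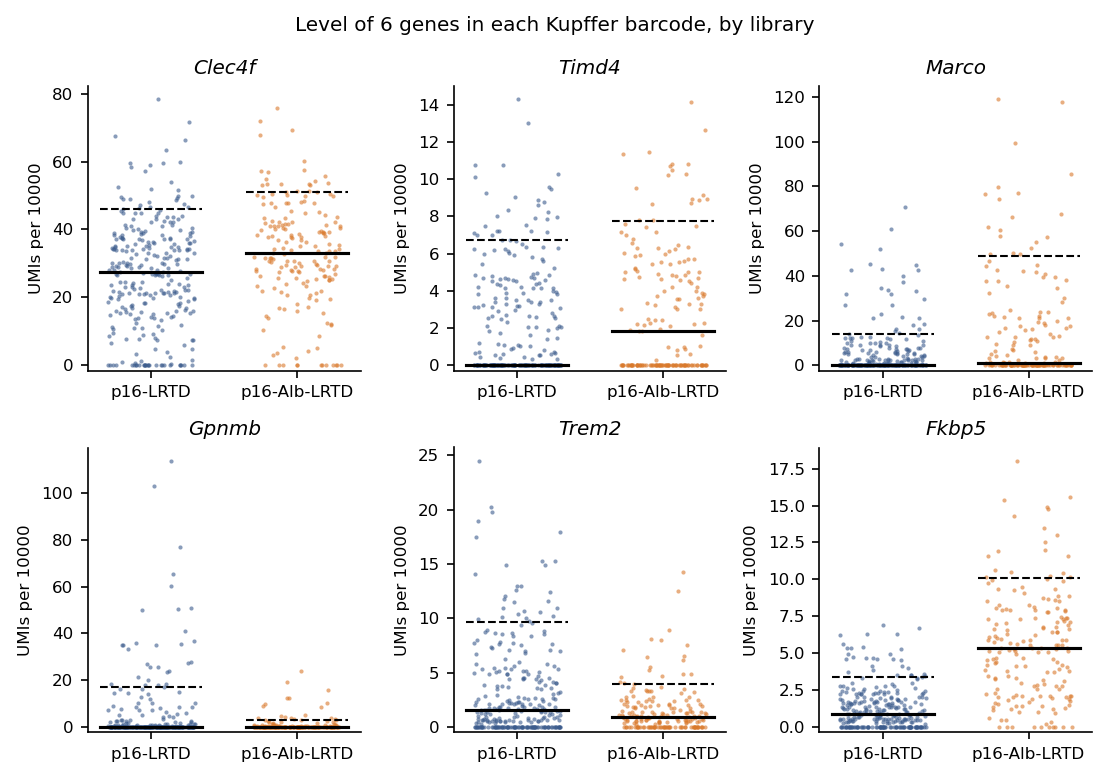
UMIs per 10000 of 6 genes in each Kupffer barcode (points) of p16-LRTD (288 barcodes) and p16-Alb-LRTD (183 barcodes), with the median (solid line) and the 90th percentile (dashed line). The Marco 90th percentile was 14.1 and 49.0, the Gpnmb 90th percentile 17.2 and 2.92, and the Fkbp5 median 0.885 and 5.34.

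The transcription factors of Kupffer cells had a median of 0.05, with 11 of 16 higher and 5 lower and none past 2-fold. Nr1h3, which encodes the oxysterol receptor LXR alpha needed for Kupffer identity, was at 0.01, and Spic, a factor of iron-recycling macrophages, at -0.05. Runx1 (537 and 847 CPM, 0.66) and Cebpb (693 and 981 CPM, 0.50) were the largest. Scavenger and efferocytosis receptors (17 genes, median 0.08), Fc receptors (6 genes, 0.04), pattern recognition genes (11 genes, 0.24) and complement genes (12 genes, 0.20) lay near the median of all genes. Within them, the antibody receptor Fcgr4 was at 256 and 430 CPM (0.74), the inflammasome sensor Nlrp3 at 98.9 and 179 CPM (0.85), and C1qa, a chain of complement C1q, at 3292 and 3995 CPM (0.28).

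Lipid-associated macrophage genes were lower in p16-Alb-LRTD. All 15 genes of the list had ratios below 0, with a median of -0.88, and 7 of 15 were at least 2-fold lower, beside 0.638% of all genes. At 20 CPM or more in both libraries the median was -0.83 and the count was 6 of 14, beside 0.387% of all genes at that level. Gpnmb was followed by Fabp5 (524 and 135 CPM, -1.95), Itgax, the integrin CD11c (51.7 and 17.8 CPM, -1.54), Cd63, a tetraspanin of lysosomes (615 and 243 CPM, -1.34), and Trem2, a lipid receptor (406 and 163 CPM, -1.31). Lgals3, the lectin galectin-3, was at 1649 and 727 CPM (-1.18), and Mmp12, the macrophage elastase, at 1380 and 752 CPM (-0.88). Apoe, which carries lipoprotein lipid (12791 and 11238 CPM, -0.19), and Lpl, lipoprotein lipase (2111 and 1517 CPM, -0.48), were high in both libraries and differed less. Spp1, osteopontin, was at 305 and 137 CPM (-1.15), but 52% of its UMIs in p16-Alb-LRTD came from 1 barcode. In stellate barcodes 7 genes of the list reached the level, with a median of -0.34, and in endothelial barcodes 12 genes, with a median of -0.25.

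Fewer barcodes of p16-Alb-LRTD were rich in Gpnmb. The number of lipid-associated genes with a UMI in a thinned barcode had a median of 7 in both libraries, with 90th percentiles of 13 and 11. Gpnmb had a UMI in 26.5% (21.5 to 32.0) of thinned p16-LRTD and 14.3% (9.5 to 20.2) of thinned p16-Alb-LRTD Kupffer barcodes, against 1.9% and 1.2% of stellate barcodes. Without thinning the Kupffer shares were 34.4% and 26.8%, and the highest barcode had 114 and 23.7 Gpnmb UMIs per 10000. To follow this, barcodes with at least 5 Gpnmb UMIs per 10000 were called Gpnmb-rich, a limit set after the values had been seen. There were 55 of 288 (19.1%, 14.7 to 24.1) in p16-LRTD and 9 of 183 (4.92%, 2.27 to 9.13) in p16-Alb-LRTD, with median depths of 30134 and 23662 UMIs, and 7 and 3 barcodes lay between 4 and 6 per 10000. The shares were 21.5% and 9.29% at a limit of 3, and 14.2% and 3.28% at a limit of 10. A further 44 and 40 barcodes had Gpnmb below the limit, and 189 (65.6%) and 134 (73.2%) had no Gpnmb UMI. Without the Gpnmb-rich barcodes the median of the 15 genes was -0.06, and the number of genes in all at least 2-fold lower was 24 in place of 40. A move towards 0 was built into this step, since it leaves out barcodes for their level of Gpnmb, the gene with the lowest ratio, and most of them were in p16-LRTD.

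Individual genes parted ways in that comparison. Without the Gpnmb-rich barcodes, the ratios of Fabp5 (-0.05) and Lgals3 (-0.38) were near 0 or small, whereas Gpnmb itself was at 0.57. Cd207 (-1.82), Ccr3, a receptor for eotaxin chemokines (-1.88), Trem2 (-0.80) and Mgst1, a microsomal glutathione transferase (-0.78), were still lower. Cd207 had a UMI in 31.8% and 14.8% of thinned barcodes (46.5% and 26.2% without thinning).

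Many genes differed in the same direction between Gpnmb-rich barcodes and the rest in both libraries, and some did not. Set against barcodes without Gpnmb, the log2 ratios in p16-LRTD and p16-Alb-LRTD were 6.44 and 6.27 for Fabp5, 5.08 and 4.57 for Atp6v0d2, 4.05 and 3.35 for Cd63, 3.40 and 2.93 for Mmp12, 2.70 and 2.32 for Lgals3 and 2.19 and 2.59 for Trem2. The ferritin heavy chain Fth1 (1.83 and 1.59), the lysosomal protease Ctsd (1.82 and 1.41) and the lipid droplet protein Plin2 (2.07 and 1.65) were higher as well. Genes of resident Kupffer cells were lower in them. Clec4f was at -1.88 and -2.77, Timd4 at -3.92 and -3.87, Marco at -1.76 and -3.13, and Cd163 at -4.07 in p16-LRTD, with no UMI in p16-Alb-LRTD. Signs were opposite for Spp1 (3.91 and -3.02), Ccl2 (-2.19 and 1.96), Cd74 (-0.55 and 1.63), Hmox1 (0.38 and -0.68) and Il1b (-3.43 and 1.16). The class was cut from these same counts, so the ratios are a description.

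In their median barcode the Gpnmb-rich cells had 7.48 Clec4f, 42.2 Cd5l and 16.2 Vsig4 UMIs per 10000 in p16-LRTD. A Clec4f UMI was present in 37 of these 55 and a Vsig4 UMI in 42, so the label rests on fewer markers in some of them. The 9 of p16-Alb-LRTD had medians of 0 for Clec4f, 26.2 for Cd5l and 0.423 for Vsig4, and a Clec4f UMI was present in 4 of them, so the Kupffer label is weak for these 9. Their median H2-Aa level was 28.8 per 10000, against 3.17 in the 55 of p16-LRTD. Fkbp5 was lower in Gpnmb-rich barcodes than in those without Gpnmb (-2.05 and -2.19).

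Timd4 gave another division. Of the thinned members, 112 in p16-LRTD and 85 in p16-Alb-LRTD had a Timd4 UMI, and 171 and 97 had none. Where it was present, Marco was higher (log2 ratio 2.80 and 3.40 over the barcodes without), as were Cd163 (3.05 and 3.55), Cxcl13, a B cell chemokine (3.83 and 2.79), and Lepr (2.69 and 3.40). Where it was absent, Fabp5 (-4.63 and -1.47), Ccr3 (-2.62 and -6.32), Cd207 (-1.19 and -2.07), H2-Aa (-1.09 and -1.74) and the class II invariant chain Cd74 (-0.66 and -1.54) were higher. A missing Timd4 UMI in a thinned barcode does not show that the gene was silent.

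By genotype, the median of the lipid-associated genes was -1.18 among barcodes without Timd4 and 0.06 among those with it. Without Timd4, Gpnmb was at 1080.3 and 160.1 CPM in the libraries, and with it at 59.96 and 48.0 CPM. Marco differed mainly where Timd4 was present, from 1133 to 2806 CPM, against 163 and 265 CPM where it was not.

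**Figure D4:**
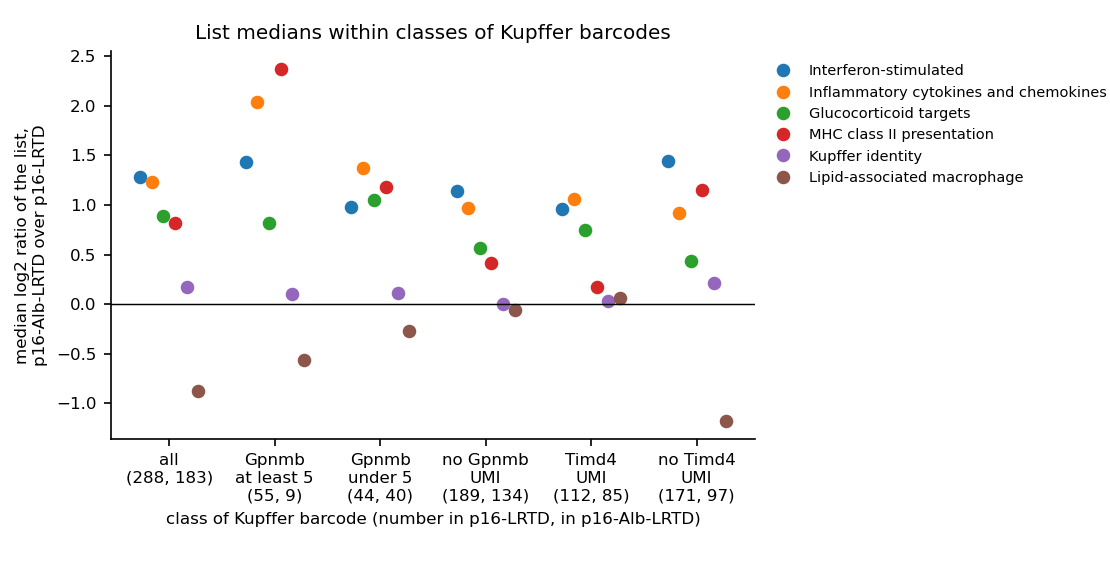
Median log2 ratio (p16-Alb-LRTD over p16-LRTD) of 6 gene lists in all Kupffer barcodes and in 5 classes of them cut by Gpnmb and Timd4 (number of barcodes per library in brackets). The interferon list lay between 0.96 and 1.45 in the classes, while the lipid-associated list lay between -1.18 (no Timd4 UMI) and 0.06 (Timd4 UMI).

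Iron, lysosomal and cholesterol genes differed in single members more than as lists. Iron and haem genes had a median of -0.24, with 9 of 13 lower. The ferritin chains Fth1 (12507 and 6393 CPM, -0.97) and Ftl1 (9471 and 6744 CPM, -0.49), which store iron, were lower, and Hmox1, which opens the haem ring, was at 1645 and 1339 CPM (-0.30). The iron exporter Slc40a1 was near level (-0.11). Lysosomal genes had a median of -0.18, with 15 of 20 lower, among them Ctsd (4422 and 2623 CPM, -0.75), the saposin precursor Psap (4593 and 2637 CPM, -0.80) and Lipa, the acid lipase that frees cholesterol from lipoproteins (975.3 and 639 CPM, -0.61). In stellate barcodes of the same libraries the lysosomal list was at -0.29, with 16 of 17 genes lower. Cholesterol and lipid genes had a median of 0.01, with Apoc1, an apolipoprotein, at 1315 and 2012 CPM (0.61) and the cholesterol exporter Abca1 at 0.34.

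MHC class II genes, which present peptides to CD4+ T cells, were higher in p16-Alb-LRTD. All 9 genes at the level had ratios above 0, with a median of 0.82, and 1 of 9 was at least 2-fold higher, beside 1.56% of all genes. H2-Aa was at 736 and 1298 CPM (0.82), H2-Ab1 at 429.9 and 794 CPM (0.89), H2-Eb1 at 445 and 816 CPM (0.87) and Cd74 at 1533 and 2775 CPM (0.86). Ciita, the transcription factor that switches these genes on, was at 25.1 and 44.4 CPM (0.82), and the costimulatory gene Cd40 at 21.8 and 44.6 CPM (1.03). No gene of the list reached 20 CPM in stellate barcodes. In endothelial barcodes 4 genes did, with a median of 4.52, higher than in Kupffer barcodes, and H2-Aa was at 10.8 and 234 CPM there. The median was 1.15 among barcodes without Timd4 and 0.18 among those with it. It was 0.65 without the Gpnmb-rich barcodes.

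Inflammatory cytokines and chemokines were higher in p16-Alb-LRTD. Of 19 genes at the level, 18 had ratios above 0, with a median of 1.24, and 11 of 19 were at least 2-fold higher, beside 1.56% of all genes. Of the 19, 2 were under 20 CPM in p16-LRTD and reached the mean through the library where they were high. Over the other 17 the median was 1.10 and the count was 9, beside 1.18% of all genes at 20 CPM or more in both libraries. Besides Tnf and Ccl7, the 11 included the neutrophil chemokine Cxcl1 (13.6 and 75.8 CPM, 2.48), and Tnf and Cxcl1 were the 2 under 20 CPM. Also among the 11 were Ccl2, the main ligand of the monocyte receptor CCR2 (77.6 and 419 CPM, 2.43), Ccl4 (184 and 587 CPM, 1.67) and Ccl3 (98.6 and 232 CPM, 1.24), which draw in monocytes and other leukocytes. The anti-inflammatory cytokine Il10 was at 42.0 and 89.9 CPM (1.10). Il1b was at 235 and 437 CPM (0.89), but its ratio was 0.09 (-0.02 to 0.21) in the barcodes without Gpnmb, which were most of the members, 1.80 in those with Gpnmb below the limit and 4.68 in the Gpnmb-rich barcodes. Cxcl9 and Cxcl10, chemokines for T cells, were at 83.0 and 240.45 CPM (1.53) and at 44.8 and 118 CPM (1.395), and 79% and 37% of the Cxcl9 UMIs came from 1 barcode. The exception was Ccl24, an eotaxin (408 and 319 CPM, -0.36).

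More barcodes carried these genes. Ccl7 had a UMI in 6.4% and 22.5% of thinned Kupffer barcodes (13.2% and 34.4% without thinning), against 3.4% and 4.7% of stellate barcodes. Cxcl2 was seen in 20.1% and 38.5% (29.9% and 48.1% without thinning), against 0.5% and 0.97% of stellate barcodes. Tnf was seen in 5.3% and 12.1% (12.8% and 22.95% without thinning), against 0.2% in both. For Ccl2 the p16-LRTD share of 21.6% was below the 35.7% of stellate barcodes and is not read as expression, while the p16-Alb-LRTD share of 41.2% was above the 32.5% there (42.4% and 67.8% of Kupffer barcodes without thinning). In stellate barcodes 4 genes of the list reached the level, 3 of them higher, with a median of 0.63, and in endothelial barcodes 5 genes, with a median of 0.12.

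Interferon-stimulated genes were the list with the highest median. All 23 genes at the level were higher in p16-Alb-LRTD, with a median of 1.28, and 18 of 23 were at least 2-fold higher, beside 1.56% of all genes. Of the 23, 4 were under 20 CPM in p16-LRTD. The other 19 had a median of 1.27, and 14 of them were at least 2-fold higher, beside 1.18% of all genes at 20 CPM or more in both libraries. The antiviral genes Ifit2 (71.0 and 226 CPM, 1.67), Oasl2 (52.5 and 169 CPM, 1.68), Oasl1 (105 and 333 CPM, 1.66) and Rsad2 (92.4 and 222 CPM, 1.27) were among them. So were the guanylate-binding GTPase Gbp2 (54.0 and 150 CPM, 1.48) and the transcription factor Irf7 (161 and 339 CPM, 1.07). The lowest ratio of the list was that of Bst2, tetherin, with 296 and 468 CPM (0.66).

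The same list was higher in the other cells of the library. In stellate barcodes 20 of 20 genes at the level were higher, with a median of 1.01, and in endothelial barcodes 18 genes had a median of 0.68. Some genes of the list were lower in Kupffer than in stellate barcodes, so that expression in Kupffer cells cannot be told from RNA of the surrounding cells. Isg15, a ubiquitin-like modifier, was at 36.6 and 109 CPM (1.58) and had a UMI in 9.5% and 33.5% of thinned Kupffer barcodes, against 42.0% and 63.2% of stellate barcodes. The antiviral gene Ifit1 was at 12.6 and 46.1 CPM (1.87), against 60.6 and 137 CPM in stellate barcodes. The level of free RNA was not measured. Of the 23 genes, 14 had a mean level in Kupffer barcodes no lower than in the other kept barcodes. Oasl1 was seen in 32.5% and 59.3% of thinned Kupffer barcodes (58.3% and 86.9% without thinning) and in 2.3% and 4.7% of stellate barcodes. Ifit2 was seen in 21.2% and 45.6% (50.3% and 74.9% without thinning), against 18.4% and 20.1%. Oas3, an antiviral synthetase, was at 39.9 and 96.2 CPM in Kupffer barcodes (1.27) and at 0.102 and 0.367 CPM in stellate barcodes, and Mx1, an antiviral GTPase, was at 13.3 and 32.3 CPM (1.28) and at 0.537 and 2.12 CPM in stellate barcodes. The median number of the 23 genes with a UMI in a thinned Kupffer barcode was 5 and 9.

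**Figure D5:**
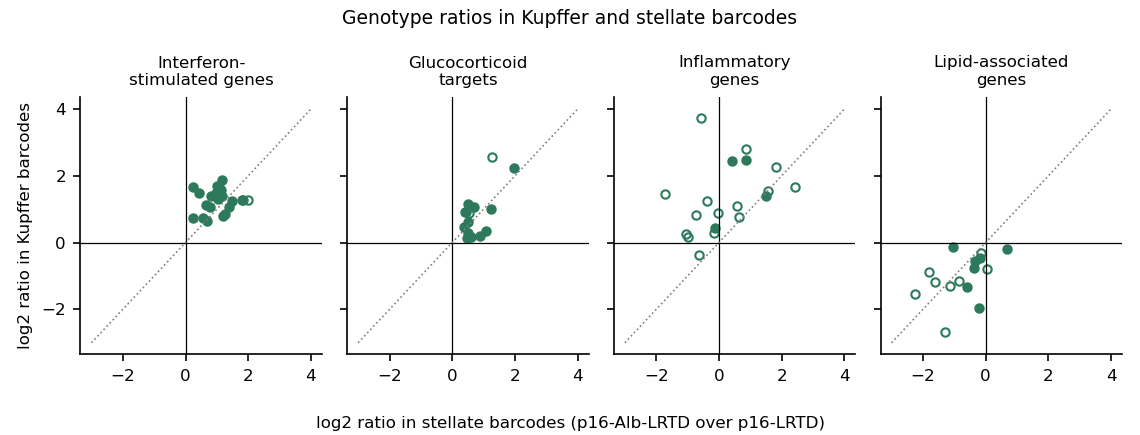
Log2 ratios (p16-Alb-LRTD over p16-LRTD) of the members of 4 gene lists in Kupffer barcodes (vertical axis) and in stellate barcodes of the same libraries (horizontal axis). Filled points had a mean of at least 20 CPM in stellate barcodes, open points less, and the dotted line marks equal ratios. The 20 filled points of the interferon list lie above 0 on both axes.

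The promoters of these genes are described because the list had the highest median. Type I interferon acts through transcription factors that bind an interferon-stimulated response element near the start of its target genes. RefSeq promoters (GRCm38.p6, 250 bases before to 50 after the start) were found for 17 of the 23 genes. A core of this element, AAANNGAAA on either strand (TTTCNNTTT on the other), was present in 13 of 17 (76.5%), beside 10.7% of 27025 promoters of that length. The 120 bases before the start of 4 of them, chosen because their level was higher in Kupffer than in stellate barcodes, follow with matches in capitals. Oas1a, a synthetase like Oas3, was at 26.1 and 45.5 CPM in Kupffer barcodes (0.80).
Oas3 (chr5:120777660-120777779, minus strand): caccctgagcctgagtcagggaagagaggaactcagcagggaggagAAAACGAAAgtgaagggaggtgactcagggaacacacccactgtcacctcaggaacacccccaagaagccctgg
Oas1a (chr5:120907526-120907645, minus strand): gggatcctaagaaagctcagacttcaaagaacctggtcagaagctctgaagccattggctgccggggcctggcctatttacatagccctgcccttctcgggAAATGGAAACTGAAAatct
Gbp2 (chr3:142620543-142620662, plus strand): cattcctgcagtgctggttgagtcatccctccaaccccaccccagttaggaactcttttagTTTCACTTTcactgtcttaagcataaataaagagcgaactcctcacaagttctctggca
Rsad2 (chr12:26456453-26456572, minus strand): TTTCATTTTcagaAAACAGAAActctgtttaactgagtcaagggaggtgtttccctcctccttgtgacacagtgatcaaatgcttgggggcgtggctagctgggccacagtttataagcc
In Oas1a the capitals span overlapping matches. A match is a description of the letters and not evidence of binding.

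Glucocorticoid targets were higher in p16-Alb-LRTD as well. All 15 genes at the level had ratios above 0, with a median of 0.89, and 5 of 15 were at least 2-fold higher, beside 1.56% of all genes. At 20 CPM or more in both libraries the median was 0.75 and the count was 4 of 14, beside 1.18% of all genes at that level. Fkbp5 (chr17:28399094-28517527) was at 118 and 553 CPM (2.23, 2.11 to 2.35), Ddit4 at 12.6 and 74.7 CPM, and Tsc22d3, the anti-inflammatory protein GILZ, at 145 and 276 CPM (0.93). Klf9 (1.07), the clock gene Per1 (1.004), the metallothionein Mt2 (1.16) and Nfkbia, the inhibitor of NF-kappaB (366 and 691 CPM, 0.92), were higher too. Fkbp5 had a UMI in 39.6% (33.8 to 45.5) and 83.5% (77.3 to 88.6) of thinned Kupffer barcodes, and in 25.9% and 64.0% of stellate barcodes (71.5% and 94.5% of Kupffer barcodes without thinning). In stellate barcodes 14 of 14 genes of the list were higher, with a median of 0.56, in endothelial barcodes 14 genes had a median of 0.58, and 10 of the 15 had a mean level in Kupffer barcodes no lower than in the other kept barcodes. The half-site spacing ACANNNTGT of the glucocorticoid receptor was found in 2 of 15 promoters of the list (13.3%), beside 6.90% of all promoters.

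Genes known to respond to tissue dissociation moved with these lists. Of 17 genes at the level, 17 were higher in the Kupffer barcodes of p16-Alb-LRTD, with a median of 0.45, and 17 of 17 in its stellate barcodes, with a median of 0.71. In Kupffer barcodes 2 of the 17 were under 20 CPM in p16-LRTD, and the other 15 had a median of 0.38. In endothelial barcodes 16 genes had a median of 0.85. The immediate early gene Egr1 was at 155 and 347 CPM (1.16), and the heat shock gene Hspa1b at 7.22 and 49.6 CPM (2.78), whereas Fos was near level (0.22). Of the 17 genes, 7 had a mean level in Kupffer barcodes no lower than in the other kept barcodes. Preparation and genotype cannot be told apart with 1 library of each.

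Within the classes of Kupffer barcodes, the interferon, inflammatory and glucocorticoid lists had medians above 0 in each of the 5. Other lists did too, among them dissociation genes (0.44 to 0.66), MHC class II genes (0.18 to 2.37) and the LIFR and IL-6 family (0.10 to 0.52). The interferon list ranged from 0.96 (Timd4 UMI) to 1.45 (no Timd4 UMI), the inflammatory list from 0.92 (no Timd4 UMI) to 2.04 (Gpnmb-rich, 9 barcodes in p16-Alb-LRTD), and the glucocorticoid list from 0.43 (no Timd4 UMI) to 1.06 (Gpnmb under 5 per 10000). Fkbp5 lay between 1.87 and 2.25 in the 5 classes.

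The LIFR and IL-6 family was the pathway the study followed from hepatocytes to stellate cells. In Kupffer barcodes 8 of its 16 genes reached the level and 8 of 8 were higher, with a median of 0.34, and 1 of 8 was at least 2-fold higher, beside 1.56% of all genes. That gene was Lifr, the receptor for leukaemia inhibitory factor (15.8 and 33.1 CPM, 1.07), which reached a mean of 20 CPM through the p16-Alb-LRTD library. The other 7 genes had a median of 0.29. Il6ra, the interleukin-6 receptor, was at 162 and 224 CPM (0.47), and Il6st, the shared signal-transducing chain, at 40.4 and 47.4 CPM. The mean level in Kupffer barcodes was no lower than in the other kept barcodes for 3 of the 8. The ligand Lif had no UMI in either library.

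Of the ligands and proteases of fibrosis, 7 of 15 were higher and 8 lower, with a median of -0.08. Lgals3 (-1.18) and Spp1 (-1.15), which are also in the lipid-associated list, were the 2 of 15 at least 2-fold lower, beside 0.638% of all genes. Tgfb1, the main profibrotic cytokine, was level (167 and 169 CPM, 0.01), as was Pdgfb, a mitogen for stellate cells (-0.12). Igf1, an insulin-like growth factor, was at 844 and 652 CPM (-0.37), Timp2, an inhibitor of metalloproteinases, at -0.52, and the interstitial collagenase Mmp13 at 67.9 and 129 CPM (0.92). The amphiregulin gene Areg had no UMI.

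Monocyte genes did not stand out. Of 10 at the level, 3 were higher and 7 lower, with a median of -0.20. Ly6c2, which marks inflammatory monocytes, had 2 UMIs in p16-LRTD and none in p16-Alb-LRTD, and Ccr2 was at 8.37 and 9.96 CPM. Cx3cr1, the fractalkine receptor, was at 42.5 and 16.7 CPM (-1.35), Lyz2, lysozyme, at 3844 and 2903 CPM (-0.40), and Plac8 at 239.7 and 429 CPM (0.84).

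Proliferation genes were low, with 7 of 21 at the level and a median of -0.45. Stmn1, a microtubule regulator of dividing cells, was at 39.2 and 12.997 CPM (-1.59), and Mki67 at 13.3 and 12.4 CPM. Stellate barcodes had a median of -0.47 for the same list. The cell-cycle homology region TTTGAA was found in 7 of 17 promoters of the list (41.2%), beside 18.1% of all promoters.

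Cdkn2a, which encodes p16 and whose promoter drives the Cre (chr4:89274471-89294653), was at 34.95 and 29.2 CPM in Kupffer barcodes, a log2 ratio of -0.26 with an interval that reaches 0 (-0.58 to 0.06). A UMI was present in 14.5% and 10.99% of thinned Kupffer barcodes, against 2.7% and 2.3% of stellate barcodes, and in 31.9% and 32.2% of Kupffer barcodes without thinning. It was higher in barcodes with a Timd4 UMI than in those without (log2 ratio 1.27 in p16-LRTD and 1.23 in p16-Alb-LRTD). Counting at the 3' end does not separate the p16 and p19 transcripts of this gene. Cdkn1a, the inhibitor p21, was at 56.1 and 95.1 CPM (0.76), and Gdf15, a stress-induced cytokine, at 210.2 and 313 CPM (0.57).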

How the data were processed

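Single-cell RNA was measured in 2 libraries of HSC preparations, 1 per genotype, with the 10x Genomics 3' v3.1 kit. The deposited values are unnormalised UMI counts of each gene in each barcode. Per the submitters' processing notes, the authors used Cell Ranger 7.0.1 and mm10. Of 31054 features, 30934 were matched to GENCODE vM21 (GRCm38), the source of gene coordinates.

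Barcodes with a mitochondrial share of at most 5%, 2000 to 7000 genes and at most 50000 UMIs were kept, as in the methods of the study. No doublet caller was run, and doublets were limited by the upper limits and by the stellate limit alone. Kupffer barcodes were chosen by the marker sums given in the report, stellate barcodes by a stellate sum of at least 15 and a Kupffer sum under 8 per 10000 UMIs, and endothelial barcodes by Stab2, Clec4g, Kdr and Dnase1l3 of at least 8. The members and the gene lists were chosen with earlier results of these data known.

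UMIs were summed over the barcodes of a class and library and divided by the total to give CPM. Ratios have exact conditional intervals, CPM exact Poisson intervals, and shares Clopper-Pearson intervals, all at 95%. PCR, mice and preparations add error that they do not cover. No test was possible, and a gene was called when it differed at least 2-fold at a mean of at least 20 CPM. Shares with a UMI were computed after thinning to 5000 UMIs (seed 1). Classes by Gpnmb and Timd4 were set after seeing the data.

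Genes were named when they belonged to a list and had a mean of at least 20 CPM (or a level near 0). Beyond the lists, they were named when their genotype ratio was 1 of the 12 highest or 12 lowest, counting genes that reached 50 CPM in 1 library and had a mean level in Kupffer barcodes no lower than in other kept barcodes, or 1 of the 15 highest ratios over those barcodes at 100 CPM or more. Mitochondrial, ribosomal, haemoglobin, Y-linked and predicted genes, Xist and Tsix were left out of these rankings. Other genes on chromosome X were kept.

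Alternatives were other marker and quality limits, scaling by TMM (edgeR 4.0.16, R 4.3.3) and by the median of ratios, other minimum levels, a fixed depth range and the mean over barcodes. Python 3.11.15 with NumPy 2.4.6, SciPy 1.17.1 and pandas 2.3.3 was used. The interval and ratio steps were tested on simulated data. Some genes of the lists are counted in list totals but are not reported here by name.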

Additional observations from a re-analysis of the deposited data

Results flagged for a closer look

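The reporter tdTomato was not part of any comparison in the report. In Kupffer barcodes it was at 5.63 CPM (3.68 to 8.25, 26 UMIs) in p16-Alb-LRTD and at 1.64 CPM (0.787 to 3.02, 10 UMIs) in p16-LRTD, and it was set apart because the first lies above the level in the control genotype. In stellate barcodes the levels were 5.77 and 3.09 CPM, and in endothelial barcodes 3.44 and 2.28 CPM, so the level in Kupffer barcodes of p16-Alb-LRTD was no higher than in the stellate barcodes around them. After thinning, 3.3% of p16-Alb-LRTD Kupffer barcodes and 0 of 283 p16-LRTD Kupffer barcodes had a tdTomato UMI (Clopper-Pearson interval up to 1.295%), and stellate barcodes were at 2.7% and 1.6%. This limit holds for thinned barcodes only, since without thinning 11.5% and 3.1% of the Kupffer barcodes had a UMI. Its source was not tested.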

How the results depend on the processing

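No paired analysis was possible because a single library stood for each genotype. Across 18 alternatives, 404 values were computed. Of the 288 for named genes, 285 kept their direction and 55 moved beyond their counting interval. Of the 116 other values, 25 moved. The 3 that reversed were Slpi, at -3.62 in barcodes with 10000 to 30000 UMIs, and Gpnmb at 0.57 and Adam8 at 0.54 without the Gpnmb-rich barcodes. The alternatives without Gpnmb-rich barcodes, without the top barcode, with other Gpnmb limits, and for that share without upper limits were chosen after seeing the data.

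Genes at least 2-fold higher and lower numbered 59 and 19 at a mean of at least 50 CPM, and 174 and 163 at 5 CPM. Without the Gpnmb-rich barcodes 24 were lower, and the list medians were -0.0639 (lipid-associated), 0.0104 (Kupffer identity), 0.55 (glucocorticoid), 1.01 (inflammatory), 1.07 (interferon) and 0.65 (MHC class II). In barcodes with 10000 to 30000 UMIs the medians were -0.70 (lipid-associated), 0.0231 (identity) and 0.75 (glucocorticoid). As the mean over barcodes they were -0.62, 0.0603 and 0.69, and 1.06 for the inflammatory list. The lipid-associated median was -0.71 with a stellate sum under 5, the glucocorticoid median 0.63 without the top barcode, and the MHC class II median 0.72 without endothelial-rich barcodes and 0.90 with a Kupffer sum of at least 5. The endothelial-rich share of p16-LRTD was 6.25% at a limit of 4. The Gpnmb-rich shares of p16-LRTD and p16-Alb-LRTD were 21.5% and 9.29% at a limit of 3, and 14.2% and 3.28% at a limit of 10. The cause of these moves was not tested. Scaling shifted log2 ratios by 0.04 (TMM) and 0.06 (median of ratios).

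Depth limits genes near 20 CPM, where 1 barcode can hold most UMIs. The 9 Gpnmb-rich barcodes of p16-Alb-LRTD give wide error to values within that class.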
